A study of Homo sapiens with 5 samples.

Results

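In OVCAR8 cells, an established human ovarian carcinoma line, 404 sites far from annotated gene starts held overlapping peak calls of HSF1 and MYC. They were chosen by their peaks. For each factor, the intervals that hold a peak of both replicates were kept, and an HSF1 interval became a member when it overlapped a MYC interval by 1 bp or more and its midpoint lay more than 3 kb from every GENCODE transcription start site of a protein-coding or lncRNA gene. The 404 sites are part of 2141 HSF1 sites and 11756 MYC sites. The series holds 2 HSF1, 2 MYC and 1 IgG library of untreated OVCAR8 cells, made by CUT&RUN, in which an antibody directs a nuclease to the DNA around a protein and the released fragments are sequenced. Each reaction took 500000 cells fixed for 1 min with 1% formaldehyde, and the control antibody, IgG, gave the background against which all 4 peak lists were called. All libraries come from 1 cell line without a perturbation of either factor. Nothing in the labels says that replicates were separate cultures.

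HSF1 is the main transcription factor of the heat shock response. It binds as a trimer to the heat shock element, a run of inverted GAA units, and is known for driving chaperone genes and, in tumor cells, a wider set of genes. MYC binds with its partner MAX to the E-box CACGTG and occupies most active promoters when it is abundant. Sites far from start sites that hold transcription factors are often enhancers, where AP-1 and TEAD factors bind in many epithelial tumor cells.

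The sequences that best match these 2 modes of binding are shown first, since few members hold them. The heat shock element was searched as GAANNTTCNNGAA or its reverse complement, 3 units over 13 bp, within 100 bp either side of the strongest HSF1 summit. It was found at 18 of the 404 members, and the 8 sites printed here have the highest mean HSF1 enrichment outside the chromosome that carries the MYC gene. Each line is the plus strand of GRCh38 with the element in capitals and 12 bases on either side. CRACDL, VPS53, PLEKHA6, FBXW11 and C19orf25 name the gene that holds the site, and the others name the nearest protein-coding gene.
CRACDL, chr2:98805685-98805721: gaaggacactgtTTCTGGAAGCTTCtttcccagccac
ZMIZ1, chr10:78756891-78756927: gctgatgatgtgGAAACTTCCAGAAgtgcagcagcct
C19orf25, chr19:1470217-1470253: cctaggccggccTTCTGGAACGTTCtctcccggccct
VPS53, chr17:691580-691616: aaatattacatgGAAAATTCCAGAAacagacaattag
PLEKHA6, chr1:204320629-204320665: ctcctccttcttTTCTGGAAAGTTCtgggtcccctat
NANOS3, chr19:13853637-13853673: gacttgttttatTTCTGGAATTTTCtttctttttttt
MAP1LC3B2, chr12:116528433-116528469: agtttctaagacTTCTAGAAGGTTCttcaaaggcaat
FBXW11, chr5:171955139-171955175: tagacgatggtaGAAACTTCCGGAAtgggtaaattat

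The E-box CACGTG, which reads the same on both strands, was found in the same window at 25 members. The 5 with the highest mean MYC enrichment are printed with the E-box in capitals and 12 bases on either side. The first lies in an intron of PTPN1 and the GFRA1 site in an intron of GFRA1, and the others lie between genes and are named by the nearest protein-coding gene. The window of the ZNF195 site had 2 near-identical copies elsewhere in the genome, and a start of the pseudogene FAM86GP lay 431 bp from its midpoint.
PTPN1, chr20:50561451-50561480: cctgtaagtatcCACGTGgccggtaccagt
ZNF195, chr11:3423032-3423061: actatgtcgtagCACGTGgccaggcgctgc
THSD1, chr13:52349110-52349139: agtgctcacaccCACGTGactcaaggaaag
GFRA1, chr10:116114195-116114224: tcacagaagaagCACGTGgccaagaggctg
PLA2G1B, chr12:120317688-120317717: gagatcgagagcCACGTGctcataagatat

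A single member held both motifs in its window. It lies in an intron of PLEKHA6, a gene of a cytoplasmic adaptor protein, 13331 bp from the start site. Its window is printed whole, with both motifs in capitals. The heat shock element was centred 26 bp from the HSF1 summit and 71 bp from the MYC summit, and the E-box 89 bp from the HSF1 summit and 134 bp from the MYC summit.
PLEKHA6, chr1:204320521-204320721: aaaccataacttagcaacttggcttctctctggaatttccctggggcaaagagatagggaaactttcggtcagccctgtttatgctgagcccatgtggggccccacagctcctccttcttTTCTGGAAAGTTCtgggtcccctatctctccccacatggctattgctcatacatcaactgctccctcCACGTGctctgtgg
The HSF1 fold enrichment over IgG was 12.99 in replicate 1 and 14.5 in replicate 2, and that of MYC was 26.1 and 20.1. Both factors were thus above the median member in all 4 lists.

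AP-1, the dimer of JUN and FOS proteins, binds TGAGTCA or its reverse complement TGACTCA. One or the other stood within 100 bp of the HSF1 summit at 69 members. The 4 sites with the highest geometric mean of the 4 fold enrichments are printed, with the motif in capitals, because AP-1 was the most frequent of the AP-1, TEAD and ETS motifs. The first lies between genes, 4730 bp from a start site of PAX8, a transcription factor of the Müllerian lineage.
PAX8, chr2:113283792-113283822: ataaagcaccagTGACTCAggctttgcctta
GFRA1, chr10:116114132-116114162: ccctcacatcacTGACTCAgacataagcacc
LRMDA, chr10:76428935-76428965: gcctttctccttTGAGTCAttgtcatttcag
RNF182, chr6:14001722-14001752: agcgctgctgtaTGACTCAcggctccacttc
The GFRA1 member thus appears under both motifs, with an AP-1 motif and an E-box in 1 window.

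Of all 2141 HSF1 sites, 916 overlapped a MYC site (42.8%). The share was 62.1% among the 824 HSF1 sites within 3 kb of a start site, where 512 overlapped MYC, and 30.7% among the 1317 distal ones, which gave the 404 members. These counts follow from the rule and are given as a description. The distal share rested on the MYC lists and on the threshold: it was 57.3% without MYC replicate 2, 54.6% with the union of the lists and 20.3% with MYC peaks at p 1e-20 or lower. It was 59.1% between the lists of replicate 1 of both factors and 25.2% between those of replicate 2. The number of members was 655 without HSF1 replicate 1, 985 without HSF1 replicate 2, 754 without MYC replicate 2 and 400 without MYC replicate 1. The members were compared with 3 other sets: the 913 distal HSF1 sites without a MYC site, the 512 promoter sites shared by both factors, and the 2491 distal MYC sites without HSF1. The comparison asked which sequence features and locations differ between them. Fisher's exact test, two-sided, was used on the share of sites with a feature, and p-values were adjusted by Benjamini-Hochberg over all 34 tests, of which 13 passed 0.05. Sites of 1 library are not replicates, so the p-values describe these lists, and shares from pairs of single lists are given as the error for some of the comparisons. The set of distal HSF1 sites without MYC is not free of MYC: 350 of the 913 overlap a peak of MYC replicate 1 alone and 6 a peak of MYC replicate 2 alone, which leaves 557 with no MYC peak in either list.

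The heat shock element was rarer at the shared distal sites than at the distal HSF1 sites without MYC. It stood at 18 of 404 members (4.46%, 95% Wilson interval 2.84 to 6.93%, counting error only) and at 125 of 913 distal HSF1 sites without MYC (13.7%), odds ratio 0.294 by Fisher's exact test (adjusted p = 7.14e-07). Taking the lists of replicate 1 of both factors alone, the shares were 2.01% of 2386 shared distal sites and 13.4% of 1652 without MYC. With the lists of replicate 2 they were 2.66% of 638 and 8.93% of 1892. The difference therefore had the same direction in both pairs and was larger than the gap between the pairs. Against the 557 sites with no MYC peak in either list, of which 19.9% held the element, the odds ratio was 0.187 (exact test, adjusted p = 2.66e-12), a set chosen after seeing the data. The looser form with 2 units, GAANNTTC or TTCNNGAA, which is part of every full element, gave the same order, 101 members (25%) against 351 sites (38.4%), an odds ratio of 0.534 (exact test, adjusted p = 6.30e-06).

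The distal MYC sites without HSF1 almost never held the full element, 3 of 2491 sites (0.120%), so the members held it more often, odds ratio 38.7 (Fisher's exact test, adjusted p = 2.90e-12). The rule required an HSF1 site at the members and none at these MYC sites. A higher share of the element and of its 2-unit form therefore largely follows from the rule. The 2-unit form stood at 8.63% of those MYC sites, an odds ratio of 3.53 (exact test, adjusted p = 2.37e-17). In these comparisons the members were centred on the HSF1 summit and the MYC sites on the MYC summit. With the members centred on their strongest MYC summit, an alternative chosen after seeing the data, the full element stood at 10 members (2.48%), odds ratio 21.0 (exact test, adjusted p = 2.17e-06), and the 2-unit form at 17.3%, odds ratio 2.22 (exact test, adjusted p = 2.17e-06). The promoter sites shared by both factors held the full element at 19 of 512 sites (3.71%), and the test of the difference from the members gave an odds ratio of 1.21 (exact test, adjusted p = 0.692). The direction of that last comparison turned in 10 of its 19 alternatives, none of which passed the threshold. A further 312 HSF1 sites lay within 3 kb of a start site without a MYC site, and 17.6% of them held the full element. The lower share at shared sites was thus also seen near start sites, a contrast that was not tested.

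**Figure D1:**
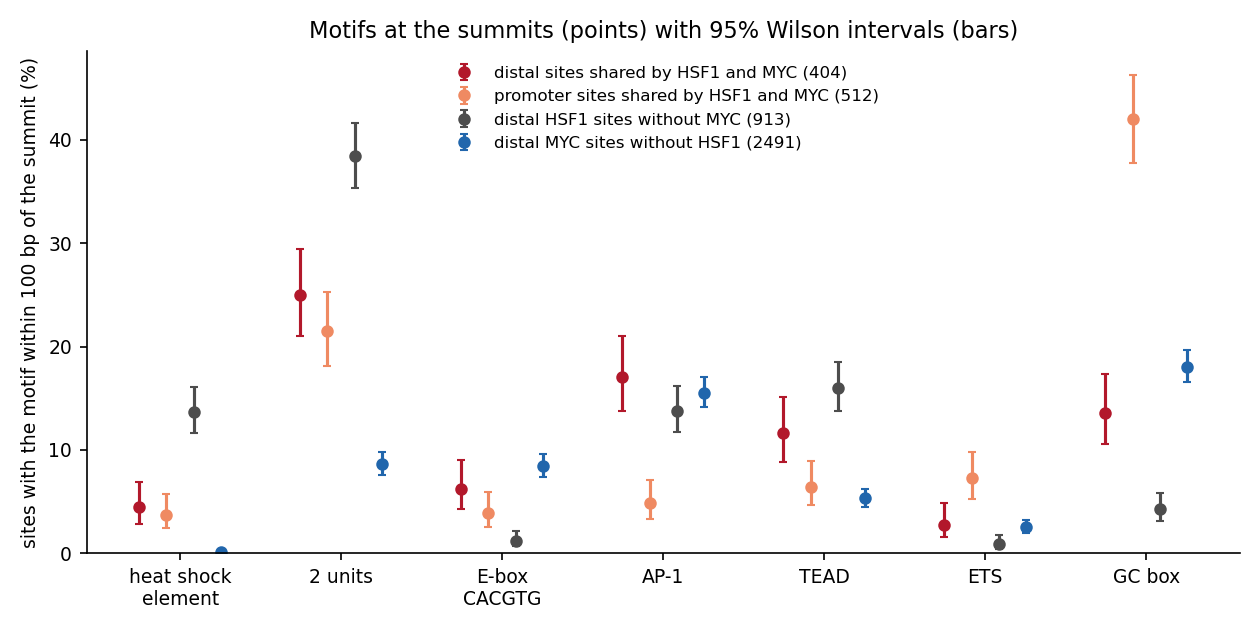
Share of sites (%, vertical axis) with each motif within 100 bp of the strongest summit in the 4 sets of sites, as points with 95% Wilson intervals. The members lie at 4.46% for the heat shock element and 6.19% for the E-box, between the distal HSF1 sites without MYC and the distal MYC sites without HSF1 for both motifs.

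The E-box CACGTG was more frequent at the members than at the distal HSF1 sites without MYC. It stood at 25 members (6.19%, Wilson interval 4.23 to 8.98%) and at 11 of the 913 distal HSF1 sites without MYC (1.205%), odds ratio 5.41 (Fisher's exact test, adjusted p = 5.80e-06). The rule required a MYC site at the members and none at the others, so a higher share of the E-box largely follows from the rule. In the lists of replicate 1 the shares were 3.77% and 1.09%, and in those of replicate 2 they were 5.49% and 1.43%. Distal MYC sites without HSF1 held it at 210 of 2491 (8.43%), and the members did not pass the test against them, odds ratio 0.716 (exact test, adjusted p = 0.228). That call depended on the setting. In 9 of 19 alternatives the share was lower in the members and passed, among them the union of the lists (0.579), HSF1 peaks at p 1e-06 or lower (0.486), the windows of 250 bp (0.490) and the whole interval (0.423). By the exact test the adjusted p was 0.0132 without HSF1 replicate 1, 0.00661 without HSF1 replicate 2 and 0.0414 without MYC replicate 2. With the members, like the MYC sites, centred on the MYC summit, an alternative chosen after seeing the data, 15 members (3.71%) held it, odds ratio 0.419 (exact test, adjusted p = 0.00185). With windows of 50 bp the odds ratio was 1.44 (exact test, adjusted p = 0.463). Against the shared promoter sites (3.91%) the odds ratio was 1.62 (exact test, adjusted p = 0.224). The general form CANNTG was common everywhere, at 65.3% of members and 61.7% of distal HSF1 sites without MYC, and the 2 shares did not pass the test (exact test, adjusted p = 0.320). It stood at 46.5% of shared promoter sites, which the members exceeded with an odds ratio of 2.17 (exact test, adjusted p = 7.02e-08).

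Base composition also differed between the sets and is given beside the motifs. The median GC content of the windows was 43.8% at distal HSF1 sites without MYC, 50.5% at the members, 53.7% at distal MYC sites without HSF1 and 59.7% at shared promoter sites. With GC content as a term in a logistic regression, in place of the exact test, the heat shock element had an odds ratio of 0.337 (adjusted p = 0.000150) and the E-box one of 4.17 (adjusted p = 0.000705), both against the distal HSF1 sites without MYC. With the HSF1 fold enrichment as a further term they were 0.334 and 4.16.

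The AP-1 motif was more frequent at the members than at shared promoter sites. It stood at 69 members (17.1%, Wilson interval 13.7 to 21.1%) and at 25 shared promoter sites (4.88%), odds ratio 4.01 (Fisher's exact test, adjusted p = 2.02e-08). The shares at distal HSF1 sites without MYC (13.8%, exact test, adjusted p = 0.224) and at distal MYC sites without HSF1 (15.5%, adjusted p = 0.509) did not pass the test against it. At the 312 promoter HSF1 sites without MYC, which were not tested, the share was 15.1%. The contrast with shared promoter sites thus did not extend to all promoter HSF1 sites. The comparison with the distal HSF1 sites without MYC depended on the MYC lists, since against the 557 sites with no MYC peak in either list, of which 9.16% held the motif, the odds ratio was 2.04 (exact test, adjusted p = 0.000971). It also differed between replicates. The lists of replicate 1 gave 28.2% of shared distal sites and 16.3% of those without MYC, whereas the lists of replicate 2 gave 12.1% and 8.404%.

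The TEAD motif TGGAATG, searched on both strands, is bound by TEAD factors, the DNA-binding partners of YAP. It stood at 47 members (11.6%), more often than at shared promoter sites (6.45%, odds ratio 1.91, Fisher's exact test, adjusted p = 0.0173) and at distal MYC sites without HSF1 (5.30%, odds ratio 2.35, adjusted p = 2.08e-05). At promoter HSF1 sites without MYC, which were not tested, the motif stood at 9.29%. Centred on the MYC summit, 10.4% of members held it, and the odds ratio against the distal MYC sites was 2.07 (exact test, adjusted p = 0.000599). It stood at 16.0% of distal HSF1 sites without MYC, where the difference did not pass the test (exact test, adjusted p = 0.0903). In that set 49 windows held 3 or more copies of the motif, whereas no member did. At 500 to 1000 bp from the HSF1 summit the TEAD motif still stood in 7.17% of that set per 100-bp bin, against 2.30% of members. The 16.0% therefore includes a high level that is not confined to the summits. AP-1 and TEAD motifs stood together at 5 members, and AP-1 and E-box together at 6. At 264 members (65.3%) the window held none of the full heat shock element, CACGTG, AP-1 and TEAD motifs. That share was 59.9% at distal HSF1 sites without MYC, 72.7% at distal MYC sites without HSF1 and 83.0% at shared promoter sites. It depends on the window, since within 250 bp of the summit 43.8% of members held the AP-1 motif and 11.4% the full heat shock element.

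The GC box and ETS motifs, frequent in promoters, were rarer at the members than at shared promoter sites. The rule split these sets by distance to start sites, so the comparison is a description. The direction did not hold for all promoter HSF1 sites. At the 312 promoter HSF1 sites without MYC, which were not tested, the GC box share was 15.1% and the ETS share 1.28%. The first was near the share of the members and the second below it. The GC box GGGCGG, bound by SP and KLF factors, stood at 55 members (13.6%) and at 215 shared promoter sites (42.0%), odds ratio 0.218 (Fisher's exact test, adjusted p = 3.77e-20). It was more frequent at the members than at distal HSF1 sites without MYC, where it stood at 4.27% (odds ratio 3.53, exact test, adjusted p = 6.07e-08). The median GC content was also higher at the members, 50.5% against 43.8%, and no regression with GC content was run for this motif. The rule required a MYC site at the members, and distal MYC sites without HSF1 held the GC box at 18.1%. The ETS motif CCGGAAG stood at 11 members (2.72%) and at 7.23% of shared promoter sites (odds ratio 0.359, exact test, adjusted p = 0.00717). The core of the CTCF motif, the factor of chromatin loop anchors, was found at 0 of 404 members, which allows a share of up to 0.743%, and at 0.562% of distal MYC sites without HSF1. That limit lies above 0.562%, so a difference was not detectable with this number of sites.

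The position of the motifs around the summits is given as a description. Counted in bins of 100 bp around the HSF1 summit, the heat shock element stood in 2.23% of members per bin within 100 bp and in 0.297% per bin at 500 to 1000 bp. In the bin 100 to 200 bp to the right of the summit, just outside the window searched, the element stood in 4.70% of members. AP-1 motifs stood in 9.03% within 100 bp and 2.48% at 500 to 1000 bp, and E-boxes in 3.22% and 1.78%. Around the MYC summits of the same members, the heat shock element stood in 1.36% per bin within 100 bp, AP-1 motifs in 9.28% and E-boxes in 2.10%. The E-box and AP-1 curves were highest not at the MYC summit but in the bins 100 to 200 bp to either side, where E-boxes stood in 4.21% and 4.46% of members and AP-1 motifs in 15.3% and 11.6%. For E-boxes the level 500 to 1000 bp away was 1.78%. Distal MYC sites without HSF1 had E-boxes in 4.60% per bin within 100 bp, in 6.82% and 7.67% of sites in the bins 100 to 200 bp to either side, and in 1.51% per bin at 500 to 1000 bp. At the distal HSF1 sites without MYC the heat shock element reached 8.11% per bin near the summit.

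**Figure D2:**
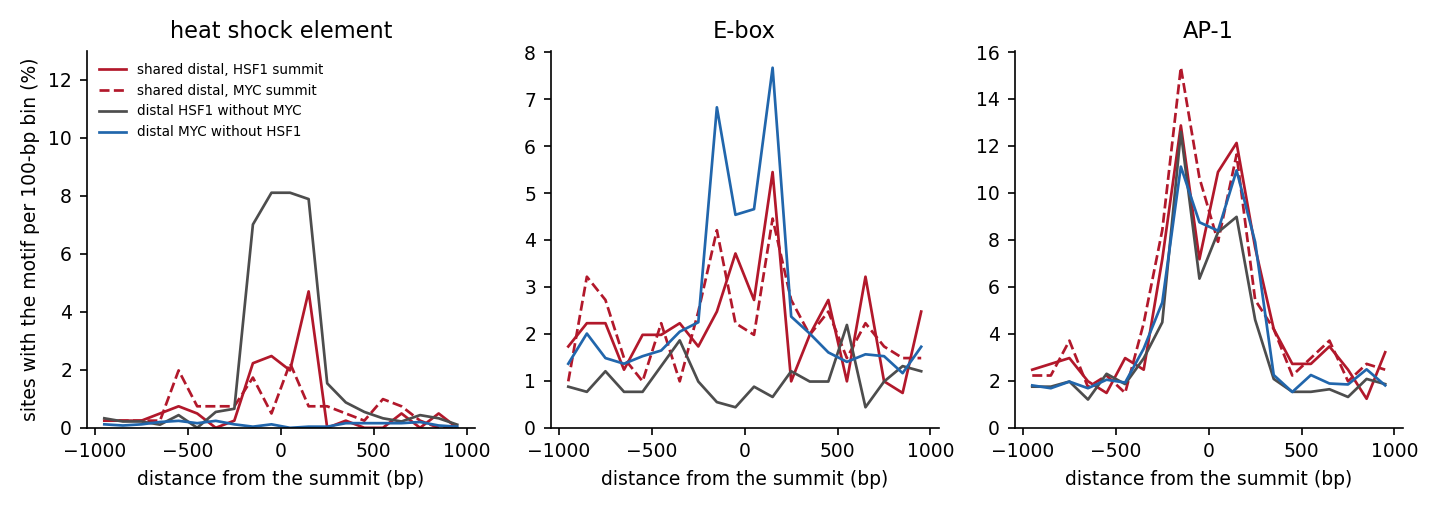
Share of sites (%, vertical axis) with a motif in each 100-bp bin up to 1000 bp either side of the summit (horizontal axis), for the heat shock element, the E-box CACGTG and the AP-1 motif, with members in red (solid line around HSF1 summits, dashed around MYC summits). The AP-1 curves rise within about 200 bp of the summit in all sets, while the heat shock element averages 2.23% per bin within 100 bp at the members and 8.11% at the distal HSF1 sites without MYC.

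The heights of the peaks chose the members and carry no test. Fold enrichment is the authors' ratio of the fragment pileup at the summit to the IgG background. In HSF1 replicate 1 the members ranged from 2.87 to 54.4 with a median of 5.96, and in HSF1 replicate 2 from 2.41 to 90.4 with a median of 5.93. MYC was higher, with a range of 6.48 to 61.6 and a median of 17.2 in replicate 1 and a range of 4.27 to 39.0 and a median of 10.6 in replicate 2. At 359 members (88.9%) the mean MYC enrichment exceeded the mean HSF1 enrichment, but the 2 factors were called at different p-value thresholds, 1e-04 for HSF1 and 1e-10 for MYC, and with different antibodies, so the heights are not on 1 scale. Distal HSF1 sites without MYC had medians of 6.25 and 6.49 for HSF1, and distal MYC sites without HSF1 had medians of 14.9 and 9.81 for MYC. Across the members, the rank correlation of the fold enrichments (Spearman, 404 sites) was 0.54 between the HSF1 replicates and 0.57 between the MYC replicates, while that of the HSF1 mean and the MYC mean was 0.014. All 4 lists share the IgG library, and the sites within a list share a depth.

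**Figure D3:**
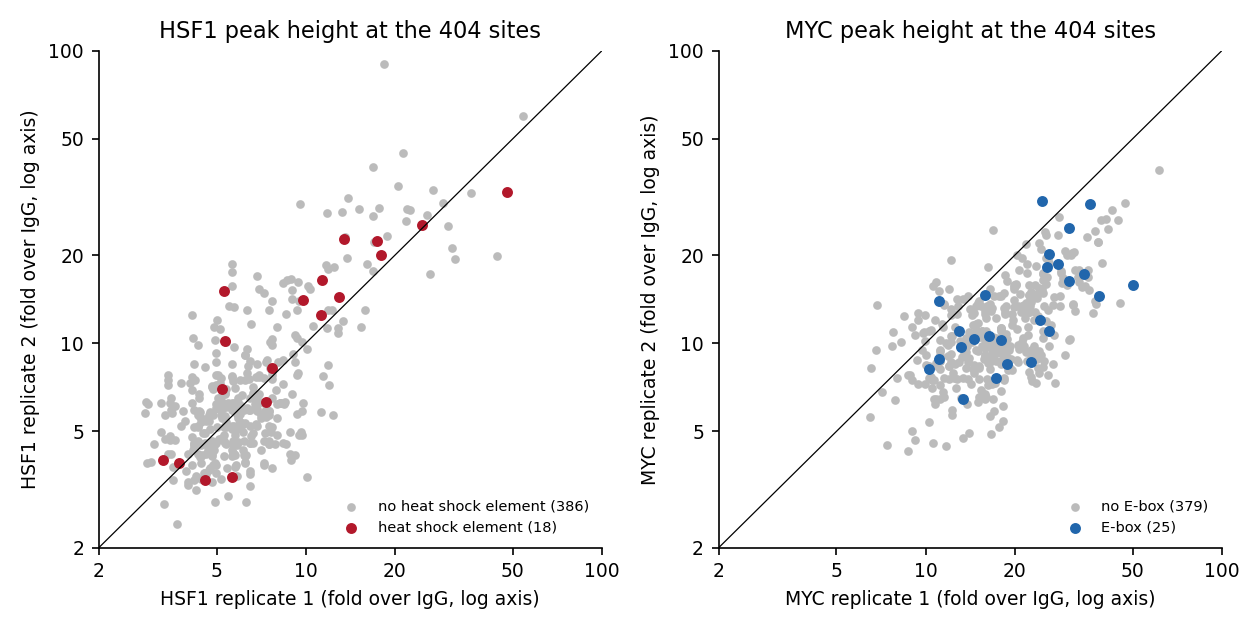
Fold enrichment over IgG of the 404 members in replicate 1 (horizontal log axis) and replicate 2 (vertical log axis), for HSF1 on the left and MYC on the right, with a line of equality. Members with a heat shock element (18, red) are spread over low and high HSF1 values, those with an E-box (25, blue) likewise over MYC values, and most members lie below the line for MYC, where replicate 1 had the higher enrichment.

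Members with a heat shock element had HSF1 medians of 8.76 and 13.3, against 5.90 and 5.90 for the 386 without it. Their MYC medians were 10.2 and 9.25, against 17.4 and 10.7. The 25 members with an E-box had MYC medians of 22.8 and 12.05, against 17.1 and 10.5 for the rest, and HSF1 medians of 4.87 and 5.82, against 5.99 and 5.95. In these lists the medians of each factor were higher at members with its own motif and lower at members with the motif of the other. For HSF1 and the E-box the gap was slight in replicate 2, 5.82 against 5.95. The groups with a motif are small, and these differences were not tested.

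The rule required the HSF1 and MYC intervals to overlap, so the distances between summits and the coverage of the intervals largely follow from it and are given as a description with no test. The strongest HSF1 and MYC summits of a member were a median of 85.5 bp apart, with 214 members (53.0%) within 100 bp and 372 (92.1%) within 500 bp. The summits of the 2 HSF1 replicates were a median of 87.5 bp apart at the same sites, and those of the 2 MYC replicates 62.0 bp. The HSF1 to MYC distance depended on the lists. Its median was 83.5 bp between the replicate 1 lists and 77.5 bp between the replicate 2 lists. It was 132.5 bp from HSF1 replicate 1 to MYC replicate 2 and 106 bp from HSF1 replicate 2 to MYC replicate 1. The reason was not tested. Within 200 bp lay 71.3% of the HSF1 to MYC distances, 80.9% of the HSF1 replicate distances and 76.5% of the MYC replicate distances, so the tail of distant summits was longer between the factors than within either. At 203 members (50.2%) the HSF1 interval lay wholly inside the MYC interval. The HSF1 interval was covered for its larger part at 370 members, and its strongest summit lay inside the MYC interval at 381. Members were 179 to 2534 bp wide, with a median of 562.5 bp. At members with a heat shock element the median distance between the factors was 166 bp, against 84.0 bp without it.

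**Figure D4:**
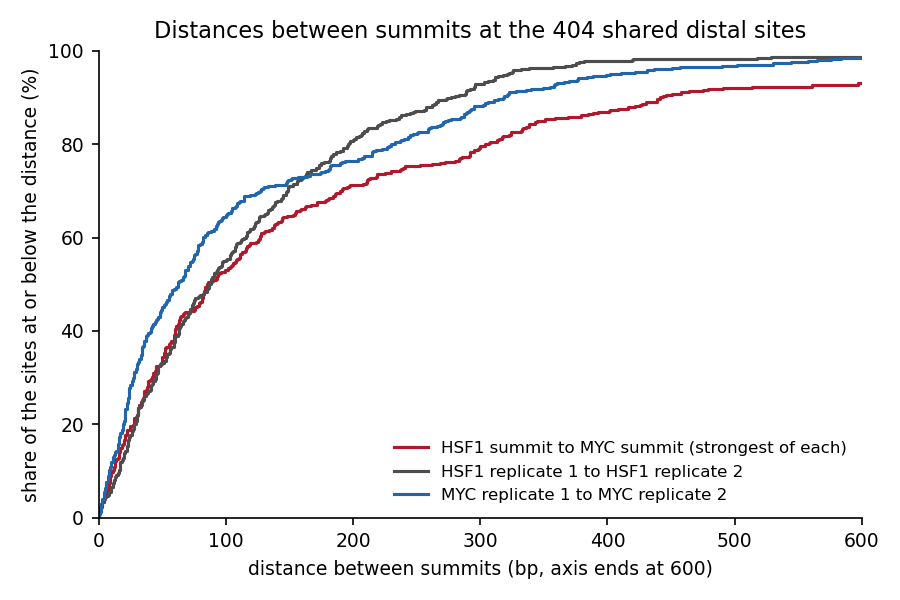
Share of the 404 members (%, vertical axis) whose summits lie within a distance (bp, horizontal axis, up to 600) of each other, for the strongest HSF1 and MYC summits and for the replicates of each factor. The HSF1 to MYC curve runs with the HSF1 replicate curve up to about its median of 85.5 bp and falls below both replicate curves beyond 200 bp.

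Most members lay in introns or between genes. Of the 404, 218 (54.0%) lay in introns of protein-coding or lncRNA genes, 179 (44.3%) between genes and 7 (1.73%) in exons. The intergenic share was 45.9% at distal HSF1 sites without MYC (odds ratio 0.938, Fisher's exact test, adjusted p = 0.692) and 42.9% at distal MYC sites without HSF1 (adjusted p = 0.690), and neither comparison passed. The first of these depended on the MYC lists, since against the 557 sites with no MYC peak in either list (51.7%) the odds ratio was 0.743 (exact test, adjusted p = 0.0469), without MYC replicate 2 it was 0.650 (exact test, adjusted p = 0.000397), and with the union of the lists 0.787 (exact test, adjusted p = 4.60e-05). Exons were rarer at the members than at distal MYC sites without HSF1 (5.18%, odds ratio 0.323, exact test, adjusted p = 0.00416). The gap was smaller in the pairs of single lists. With the lists of replicate 1 the exon shares were 3.31% and 4.34%, and with those of replicate 2 they were 2.82% and 5.07%. The median distance to a start site was 13423 bp, with quartiles of 6793 and 31851 bp and a maximum of 338364 bp. It was 20154 bp at distal HSF1 sites without MYC and 13306 bp at distal MYC sites without HSF1. Of the members, 153 lay 3 to 10 kb from a start site, 191 at 10 to 50 kb, 43 at 50 to 100 kb and 17 beyond. A MYC site lay within 1 kb of the nearest start site for 89 members (22.0%) and an HSF1 site for 17 (4.21%), against 12.7% and 2.74% of the distal HSF1 sites without MYC and 23.6% and 2.53% of the distal MYC sites without HSF1. These shares were not tested.

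The limit of 3 kb cuts through a continuum. Just past it, and so members, were sites 3003 bp from a start of MED15, 3011 bp from SSH1 and 3038 bp from TNFRSF1A. Just within it, and therefore promoter sites, were sites 2885 bp from TSEN15, 2784 bp from a start of a lncRNA gene and 2714 bp from PSG7. At the MED15 site the fold enrichment was 6.02 and 5.91 for HSF1 beside 47.2 and 30.1 for MYC, and at the TSEN15 site it was 5.89 and 5.56 for HSF1 beside 26.2 and 17.5 for MYC. The members with the weakest calls had a −log10 p of 4.08 in HSF1 replicate 1, 4.25 in HSF1 replicate 2, 13.1 in MYC replicate 1 and 10.3 in the second MYC list.

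The member with the highest geometric mean over the 4 lists lay in an intron of PTPN1, a protein tyrosine phosphatase, on chromosome 20 from 50560880 to 50562402 (GRCh38), the site of the first E-box printed above. Its fold enrichment was 22.6 and 28.5 for HSF1 beside 35.9 and 29.9 for MYC, high in all 4 lists. PSMG4, a proteasome assembly chaperone, held the site with the third highest value in an intron on chromosome 6 from 3246908 to 3248353, with 26.9 and 33.6 for HSF1 beside 24.9 and 17.3 for MYC. Introns of GSE1 (31.3 and 21.2 for HSF1, 34.4 and 15.7 for MYC) and of VAV2 (26.2 and 17.3 for HSF1, 30.4 and 16.3 for MYC) held the fourth and the sixth, the latter with an E-box. The site with the second highest geometric mean lay between genes on chromosome 7 from 158974083 to 158975546, 40621 bp from the start of DYNC2I1, and had the highest mean HSF1 enrichment of all members, 54.4 and 59.9, with MYC at 14.3 and 10.1.

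The other 7 of the 12 sites with the highest geometric mean lay near CBX7, JPH3, CACNG5, NUFIP1, METTL27 and FABP6 and in an intron of CHST3. At the CACNG5 site, 28003 bp from the gene start, the HSF1 replicates differed most widely among these sites, at 18.4 and 90.4, and 90.4 was the highest HSF1 value of any member in replicate 2. At the FABP6 site MYC was the higher factor, at 44.6 and 26.4, with HSF1 at 6.97 and 15.3. None of the 12 held the full heat shock element in its window, and the E-box was found at the PTPN1 and VAV2 sites. For the CHST3 site the values were 29.1 and 30.2 for HSF1 beside 15.01 and 9.41 for MYC.

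Among the members with a heat shock element, the highest HSF1 enrichment lay in an intron of CRACDL on chromosome 2 from 98805308 to 98806674, with 47.8 and 32.9 for HSF1 but 9.21 and 4.69 for MYC, below the MYC medians in both lists. The site near ZMIZ1 had 24.7 and 25.4 for HSF1 beside 15.1 and 6.54 for MYC, and lay 311857 bp from that gene. A site in an exon of C19orf25 had 13.5 and 22.7 for HSF1 beside 9.94 and 12.5 for MYC. In an intron of EGFR, the epidermal growth factor receptor, a member on chromosome 7 from 55064711 to 55065898 held the element with lower enrichment, 5.23 and 6.96 for HSF1 beside 6.81 and 9.47 for MYC. A site in an intron of IFIT3, whose nearest start site is that of LIPA, showed the opposite balance to CRACDL, with 5.65 and 3.48 for HSF1 beside 36.9 and 12.7 for MYC. The printed elements lay 5 to 749 bp from the strongest MYC summit.

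The protein-coding gene with the nearest start site was counted for each member, which gave 337 genes, 1.68% of the 20007 protein-coding genes with a start site on these chromosomes. Nearness is a position and does not show which gene a site acts on. Few genes of the 5 lists were among them, 4 of 96 chaperone and cochaperone genes (4.17%), 1 of 13 genes of the MYC network (7.69%), 1 of 11 AP-1 genes (9.09%), 2 of 18 ovarian carcinoma lineage genes (11.1%) and 3 of 17 genes of the YAP and TEAD pathway (17.6%). All lie above the 1.68%, but they rest on 1 to 4 genes each and were not tested.

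The chaperone genes were HSPB1, DNAJB6, DNAJC15 and CHORDC1. HSPB1 encodes the small heat shock protein HSP27, and its member lay 7982 bp upstream of the start site on chromosome 7 from 76294069 to 76295313. The fold enrichment there was 13.9 and 31.5 for HSF1 beside 18.5 and 10.6 for MYC, above the medians for HSF1 in both lists and near them for MYC. DNAJB6, an HSP40 cochaperone that suppresses protein aggregation, had 3 members within 10505 bp, from 25254 to 35269 bp upstream of its start, with HSF1 between 3.44 and 8.18 and MYC between 12.8 and 31.1. The members 25254 and 26045 bp upstream had the same MYC values, 22.3 and 12.8, so they are not separate MYC sites. The DNAJC15 and CHORDC1 members lay 129992 and 245955 bp away.

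The YAP and TEAD genes were AMOTL1, AMOTL2, both angiomotins that bind YAP, and CCN1, a matricellular target gene. The AMOTL1 member lay in the gene's own intron, with 8.26 and 6.25 for HSF1 beside 45.4 and 13.7 for MYC, while 2 members at AMOTL2 had HSF1 between 3.83 and 4.34. The TEAD motif was found at none of these 4 members. PAX8 had the member with the highest mean HSF1 enrichment of these lists, 16.9 and 40.1, and with MYC at 10.5 and 7.06. CLDN4, a tight junction claudin of epithelial tumors, had a member in its intron, 4885 bp from a start site, with 2 AP-1 motifs and with 5.29 and 4.13 for HSF1 beside 15.9 and 6.72 for MYC. The JUND member had 4.96 and 4.57 for HSF1 beside 12.01 and 8.38 for MYC.

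Members stood alone more often than in groups. With a distance of 10 kb or less between neighbors, 52 members formed 22 groups and 352 stood alone. Of all members, 14 (3.47%) overlapped a MYC interval that another member also overlapped. Of 2 groups of 4, 1 lay between genes on chromosome 5 from 73304427 to 73322521, with FOXD1 and TMEM174 as the nearest protein-coding genes, and held a heat shock element at 1 of its sites. The mean HSF1 enrichment of its members was 4.98 to 7.73 and that of MYC 5.95 to 22.7. Groups of 3 included one in an intron of PRKCA and one near DNAJB6.

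The other group of 4 lay in the U2 snRNA gene array inside CCDC200 on chromosome 17, beside a further group of 3 and a pair. U2 is the small nuclear RNA that pairs with the branch point in splicing, and its genes stand in a tandem array. From 43239685 to 43296846 there were 9 members, and 8 of them lay within 1 kb of an annotated U2 gene start, a gene type that the rule on start sites does not count. MYC was high there, 23.8 to 41.3 in replicate 1 and 14.7 to 24.6 in replicate 2, and HSF1 was low, 3.69 to 8.95 and 2.41 to 6.95. All 9 windows had 5 to 12 near-identical copies elsewhere in the genome, so fragments from 1 copy can be placed on another, and the number of separate sites cannot be told from these lists. Of the other members, 3 lay within 1 kb of an snRNA gene start. The highest MYC enrichment of any member, 61.6 and 39.0, was at RNVU1-28, a U1 gene, with HSF1 at 5.00 and 6.19. Its window had 3 near-identical copies elsewhere, so the same limit on placing fragments holds there. A start of RNU6ATAC, the U6atac RNA of the minor spliceosome, had 28.0 and 23.5 for MYC and 8.86 and 4.99 for HSF1. In all, 11 members (2.72%) lay within 1 kb of an snRNA start, as did 0 of 913 distal HSF1 sites without MYC and 19 of 2491 distal MYC sites without HSF1 (0.763%).

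For these sites the word distal holds only for protein-coding and lncRNA genes. A further 5 members lay within 1 kb of the start of a pseudogene. Of these, AHSA2P, a pseudogene of an HSP90 cochaperone gene, had the highest HSF1 enrichment, 12.5 and 18.2, with 10.3 and 7.62 for MYC, and its start lay 21 bp from the midpoint. With start sites of all gene types counted, 371 members were left. Near-identical copies of the window were found for 26 members (6.44%) and for 91 distal HSF1 sites without MYC (9.97%), a difference that did not pass the test (odds ratio 0.621, Fisher's exact test, adjusted p = 0.0910).

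By chromosome, members were most frequent on chromosome 8 with 35 (8.66%), chromosome 17 with 34 (8.42%) and chromosome 1 with 34 (8.42%). Distal HSF1 sites without MYC lay on chromosome 8 at 5.70% and on chromosome 17 at 4.60%. For distal MYC sites without HSF1 the shares were 5.78% and 6.95%. These are counts with no test, and the U2 array holds 9 of the members on chromosome 17. The authors state that HSF1 and MYC, both on chromosome 8, are amplified in OVCAR8 cells. Copy number was not measured here, and its part in the counts by chromosome was not tested.

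The MYC gene itself had 7 members for which it was the nearest protein-coding gene, all downstream on chromosome 8. The nearest lay 20705 bp from the first annotated start of the gene and 17066 bp from the nearest one, from 127755716 to 127756563, and held a heat shock element. Its fold enrichment was 17.4 and 22.4 for HSF1 beside 11.2 and 10.3 for MYC, the highest HSF1 values of the 7 in both replicates. The other 6 lay in introns of PVT1, the lncRNA gene next to MYC, from 74592 to 441625 bp away, with HSF1 between 2.88 and 10.1 and MYC between 4.45 and 20.8. None of the 7 held the E-box CACGTG near its HSF1 summit. The MYC gene start, with an HSF1 site of 4.57 and 4.67 and a MYC site of 19.7 and 8.33, had less HSF1 than the member 20705 bp away in both replicates.

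**Figure D5:**
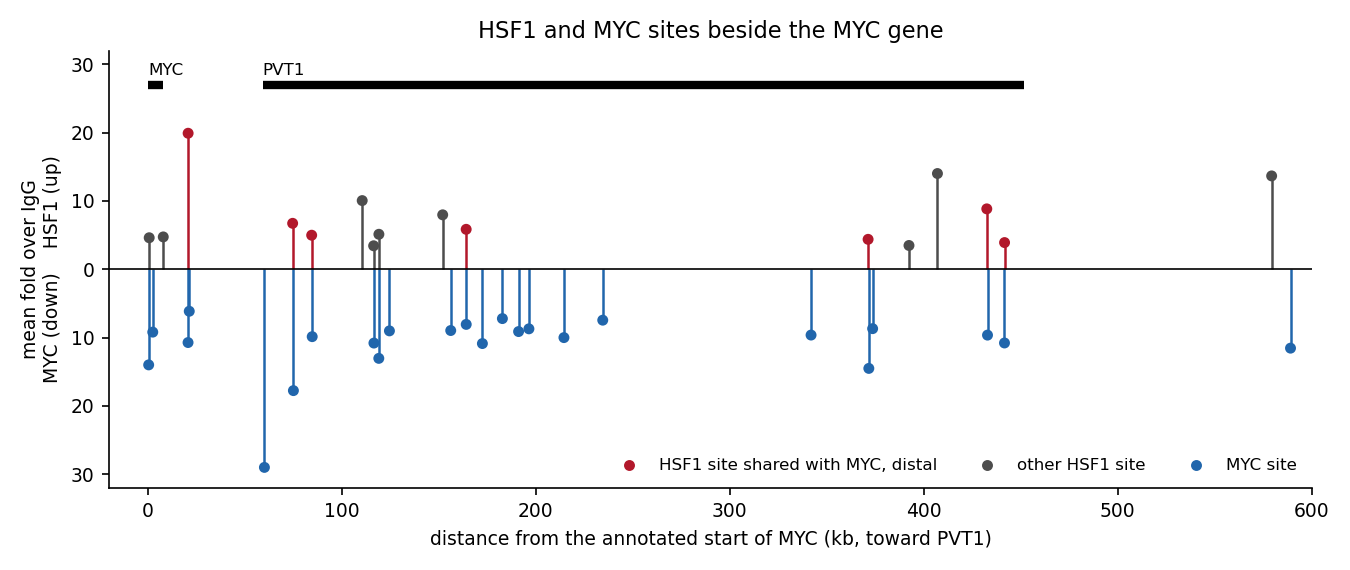
Mean fold enrichment over IgG (vertical axis, HSF1 upward and MYC downward) of HSF1 and MYC sites against their distance from the annotated start of MYC (kb, horizontal axis), with the extents of MYC and PVT1 as bars. The 7 members are in red, and the highest of them, with a mean of 19.9 for HSF1, stands 20.7 kb from the start.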

How the data were processed

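CUT&RUN peak lists of OVCAR8 cells were used, 2 for HSF1 and 2 for MYC. Reads were demultiplexed with bcl2fastq 2.20.0, aligned to GRCh38 with Bowtie 2, and each library was called alone against IgG with MACS 2.2.9.1. The headers name the control as IgG replicate 2, while the labels list 1 IgG sample, and the 2 were taken to be the same library. The p-value limit of the calls was 1e-04 in the HSF1 lists and 1e-10 in the MYC lists. The deposited lists give for each peak the pileup, a signal that the authors' MACS2 run scaled to the smaller of the antibody and IgG libraries. They also give the −log10 p-value of a local Poisson test, as deposited by the authors, and the fold enrichment, the ratio of pileup to IgG background, per the file headers. Per the headers, 8265647 to 10084407 fragments were kept per antibody library and 9306942 for IgG. A peak missing from a list is one not called at that depth and threshold.

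Groups follow the labels. The members and the gene and motif lists were chosen with earlier results of these data known. Start sites and gene locations came from GENCODE 44. Motifs were exact matches on both strands within 100 bp of the strongest summit of the factor (HSF1 for HSF1 sites, MYC for distal MYC sites without HSF1). A near-identical copy was a second placement of the window by minimap2 2.31 with 90% or more matching. Members were named if among the 12 with the highest geometric mean of the 4 fold enrichments, if they held a heat shock element or both motifs, if in the largest groups within 10 kb, or if nearest to a gene of a list. The EGFR and IFIT3 sites and the snRNA and pseudogene sites were named after their values were seen. Fisher's exact test (scipy 1.17.1) was tested on simulated data, and logistic regression used statsmodels 0.14.6. Other software was Python 3.11.15, pandas 2.3.3, numpy 2.4.6, pysam 0.24.0 and matplotlib 3.10.9. Alternatives were other thresholds, overlaps, distances, annotations, windows and motif forms, leaving out each library, and covariates.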

Additional observations from a re-analysis of the deposited data

How the results depend on the processing

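Of 144 alternatives of the 10 tested results, 105 kept the direction and the side of the threshold and 18 changed direction. Of 43 alternatives of the 3 values without a test, 27 moved by less than the spread between replicates or, for a count, less than 1.5 times. That spread was the standard deviation of the values from the 2 pairs of lists. For the overlap share these were 59.1% and 25.2%, so wide that 54.6% with the union counted as unmoved from 30.7%. The count for that share is thus a weak check. The heat shock element was rarer at members than at distal HSF1 sites without MYC in all 24 alternatives (odds ratio 0.123 to 0.534, highest adjusted p 0.0196, Fisher's exact test or logistic regression). By the exact test, the E-box difference lost its call with HSF1 peaks at p 1e-10 or lower (3.90, adjusted p = 0.100) and with any CANNTG (1.17, adjusted p = 0.335). The number of members was 2850 with the union of the lists, 143 with HSF1 peaks at 1e-10, 267 with MYC peaks at 1e-20, 251 beyond 10 kb, and 400 to 985 with a library left out. The share of distal HSF1 sites overlapping MYC was 24.4 to 57.3% with a library left out, the highest without MYC replicate 2. The summit distance was 79 bp with the union, 113 bp with HSF1 peaks at 1e-10, 76 bp with summits within 200 bp, 89 bp beyond 1 kb, 90 bp beyond 10 kb, 93 bp with coding genes only, and 87 to 106 bp with a library left out.

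The AP-1 odds ratio against distal HSF1 sites without MYC passed with the union (2.17), with the larger part of the interval covered (1.49), over the whole interval (1.31) and against sites with no MYC peak (2.04, chosen after seeing the data). It was 0.611 with HSF1 peaks at 1e-10 and 1.07 to 2.30 with a library left out, passing without HSF1 replicate 1 (1.60) and without MYC replicate 2 (2.30). Against shared promoter sites it was 2.49 and missed the threshold with HSF1 peaks at 1e-10. The intergenic odds ratio passed with the union (0.787), without MYC replicate 2 (0.650) and against sites with no MYC peak (0.743), exceeded 1 with HSF1 peaks at 1e-06 (1.06) or 1e-10 (1.03), MYC peaks at 1e-20 (1.01), start sites of all gene types (1.02) and no near-identical copies (1.06), and was 0.650 to 1.02 with a library left out. The heat shock element against promoter sites fell below 1 with the union (0.974), HSF1 peaks at 1e-06 (0.952) or 1e-10 (0.804), MYC peaks at 1e-20 (0.863), beyond 1 kb (0.961) or 10 kb (0.846), and with 50 bp (0.631), 250 bp (0.811) or whole-interval (0.780) windows, and was 0.930 to 1.77 with a library left out. The E-box against distal MYC sites was lower and passed in 9 of 19 alternatives (0.419 to 0.662), and was 1.44 with 50 bp windows. The cause of these changes was not tested.

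No paired analysis was possible because each test compares sets of sites within the same libraries, and the lists of both replicates hold many of the same sites, so the pairs of lists cannot enter 1 fit as separate samples. Shares per pair of lists stand with the heat shock element, E-box and AP-1 comparisons against distal HSF1 sites without MYC, and with the exon comparison. The other tested comparisons are given without them. The alternative without windows mostly in repeats was not run, since the genome used here is not repeat-masked. Depth limits the lists, so a site without MYC is one without a call.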
